A study of Homo sapiens with 24 samples.

Results

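The replication-dependent histone genes were picked by name in the GENCODE annotation for hg19 (the same assembly as GRCh37), as the protein-coding genes H1-1 to H1-6 and those whose names begin with H2AC, H2BC, H3C or H4C, or with the older HIST1, HIST2 or HIST3. The rule found 67 of 20163 protein-coding genes, made up of 6 H1, 17 H2A, 17 H2B, 13 H3 and 14 H4 genes. Of these, 52 lay on chromosome 6 between 25723625 and 27861669, and 13 on chromosome 1, with H4C16 on chromosome 12 and H2BC12L on chromosome 21. HIST1H4B (now H4C2) and HIST2H2AA3 (now H2AC18) are named here as the annotation has them. H2BC7, H2BC8 and H4C6 were not analysed here.

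ATAC-seq, in which a transposase inserts sequencing adapters into open DNA, was used to measure chromatin accessibility in OCI-LY3 and VAL, established human cell lines of diffuse large B-cell lymphoma. Cells were treated with the CDK9 inhibitor AZD4573 at 30 nM for 0, 3 or 8 h, and the labels give no genetic change in any group. Each of the 6 combinations of line and time had 4 libraries (24 in all), 2 made by standard ATAC-seq and 2 by Fast-ATAC, which per the sample labels used 50000 and 5000 cells, though the extraction protocol in the labels gives 50000 for Fast-ATAC too. For each line and treated time the authors deposited the coordinates of merged peaks called increased or decreased against the 0 h libraries of that line. The 8 lists, which name their control DMSO, hold no value for a single library, so no replicate error, depth or test could be had for any count here, and the protocols could not be compared. A gene without a called region may have had an unchanged peak or no peak, and markers of the B-cell lines could not be checked at baseline. As the cells were measured in bulk, a change in some of the cells and a change in each cell cannot be told apart.

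Replication-dependent histone genes supply the histones that package new DNA, and cells switch them on as they enter S phase. They lie in clusters, which gather in a nuclear body with the coactivator NPAT. Their mRNAs carry no poly(A) tail and end instead in a short stem-loop bound by SLBP, and CDK9 is known for a part in this 3' end formation as well as in the release of paused RNA polymerase II. H2A, H2B, H3 and H4 form the nucleosome core, and H1 binds the linker DNA between nucleosomes.

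The 3' stem-loop, which the naming rule did not use, was looked for on the sense strand from 150 bases before to 200 bases after the end of the coding sequence. The search took hairpins of the histone kind, a stem of 6 paired bases that opens with GG, ends in CC and closes with a T and A pair on a 4-base loop in which T, starting the loop, alternates with any base. Such a hairpin was present in 66 of the 67 genes, a median of 35.0 bases past the stop codon (22 to 67), and in 11 of 20084 other protein-coding genes. H2BC12L was the member without it. The forms below, read from GRCh37 with the stem in capitals and the loop in lower case, are shown because they mark the genes as replication-dependent. The first was held by 39 genes of the H1, H2A, H2B and H3 families, the second by 9 H4 genes, the third by 8 genes with another last loop base, and the fourth by the 4 H4 genes H4C9, H4C12, H4C14 and H4C15.
Stem-loop of 39 genes: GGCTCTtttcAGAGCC
Stem-loop of 9 H4 genes: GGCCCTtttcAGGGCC
Stem-loop of 8 genes, last loop base changed: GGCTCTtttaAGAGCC
Stem-loop of 4 H4 genes: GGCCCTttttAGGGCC
The other 6 genes with a stem-loop had a form of their own each.

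Increased regions were found at few of these genes, and a decreased region at none of them. A gene was counted when a region lay within 1000 bp of any of its transcription start sites (TSS) or overlapped the gene. In OCI-LY3, 2 of 67 genes (2.99%) were increased at 3 h, where 8.71% of all protein-coding genes were. At 8 h in that line the count was 5 (7.46%) beside 16.0% of all genes. In VAL, 11 genes (16.4%) were increased at 3 h beside 14.3% of all genes. At 8 h in VAL, 9 genes (13.4%) were increased, while the share of all genes was 33.2%. The members' share was thus below that of all genes in 3 of the 4 comparisons and close to it in VAL at 3 h.

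These genes are short, with a median of 508 bp against 27219 bp for all protein-coding genes, and the rule above also counts regions in a gene body. Counting only regions that covered a TSS gave 2 genes in OCI-LY3 at 3 h beside 5.80% of all genes, and 5 genes at 8 h (7.46%) beside 8.97%. In VAL it gave 10 genes at 3 h (14.9%) beside 10.0%, and 7 genes at 8 h (10.4%) beside 23.9%. By this rule the members' share lay close to that of all genes in OCI-LY3 at 8 h, above it in VAL at 3 h and below it in VAL at 8 h and, with 2 genes, in OCI-LY3 at 3 h. With regions up to 5000 bp from a TSS counted, OCI-LY3 had 6 members at 3 h (8.96%) beside 9.34% of all genes and 10 at 8 h (14.9%) beside 17.1%, and VAL had 15 at 3 h (22.4%) beside 15.2% and 12 at 8 h (17.9%) beside 34.6%. Both times of a line share their 0 h libraries, so the counts of 3 h and 8 h are not independent.

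**Figure D1:**
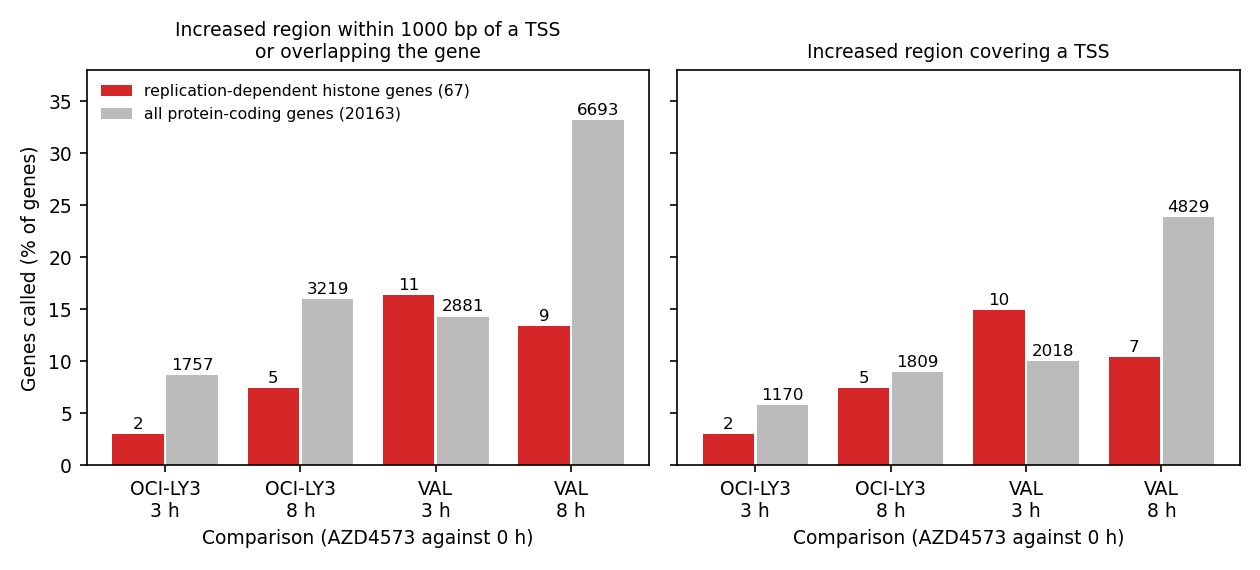
Share of genes (%, vertical axis) with an increased region in each line and time against 0 h, for the 67 histone genes (red) and all 20163 protein-coding genes (grey), with the number of genes above each bar; the left panel counts regions near a TSS or in the gene, the right panel regions covering a TSS. At 8 h in VAL 9 histone genes (13.4%) were counted in the left panel beside 33.2% of all genes, and at 3 h the members' bar is the higher of the pair in both panels.

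No member had a decreased region in any of the 4 lists, by the rule of 1000 bp or gene overlap. At 3 h 4.40% of all protein-coding genes had one in OCI-LY3 and 4% in VAL. At 8 h the shares were 7.07% in OCI-LY3 and 12.5% in VAL. For decreased regions covering a TSS the shares of all genes were 0.595% in OCI-LY3 and 0.213% in VAL at 3 h, and 1.16% and 3.10% at 8 h. The decreased region nearest to a member's TSS lay 90041 bp away in OCI-LY3 at 3 h and 21845 bp away at 8 h, and 25669 bp and 14840 bp away in VAL at 3 and 8 h. These nearest members were H2AC12, H2BC1, H4C8 and H2BC13, in that order.

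In all, 19 members (28.4%) were increased in at least 1 comparison and 48 in none, while 38.8% of all protein-coding genes were increased in at least 1. Among the linker histones, 0 of 6 H1 genes were called. Of the core histones, 5 of 17 H2A, 5 of 17 H2B, 7 of 13 H3 and 2 of 14 H4 genes were called in at least 1 comparison, to be read against the same 38.8%. The H3 genes made up 4 of the 11 genes at 3 h and 3 of the 9 at 8 h in VAL, and 1 of 2 and 3 of 5 in OCI-LY3. No H4 gene was called in OCI-LY3, where the 2 calls at 3 h were an H2A and an H3 gene and those at 8 h were 2 H2B and 3 H3 genes. With so few genes in a family and no test, an order of the families cannot be drawn from these counts.

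The genes without a call were all 6 H1 genes, then H2AC1, H2AC6, H2AC11, H2AC12, H2AC13, H2AC15, H2AC16, H2AC17, H2AC19, H2AC20, H2AC21 and H2AC25 of the H2A family. Of the H2B family they were H2BC1, H2BC4, H2BC5, H2BC10, H2BC11, H2BC12, H2BC12L, H2BC13, H2BC15, H2BC17, H2BC21 and H2BC26. The H3 genes without a call were H3C1, H3C6, H3C8, H3C11, H3C14 and H3C15. The H4 genes were H4C1, HIST1H4B, H4C3, H4C4, H4C7, H4C8, H4C9, H4C11, H4C13, H4C14, H4C15 and H4C16.

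**Figure D2:**
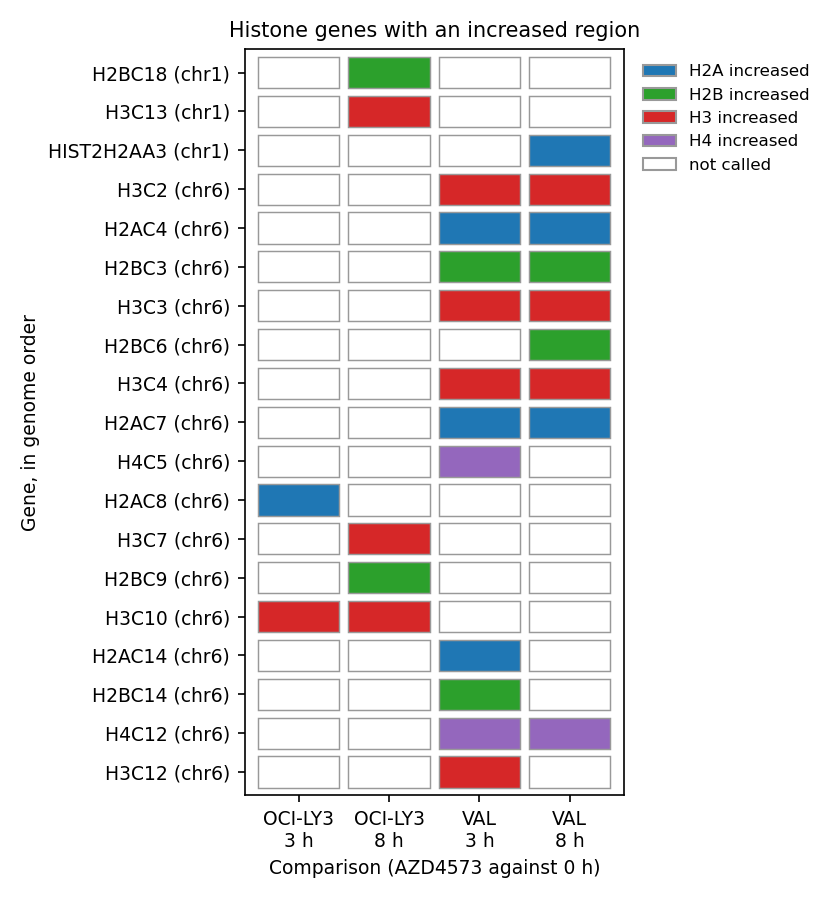
The 19 histone genes with an increased region (rows, in genome order with their chromosome) in the 4 comparisons against 0 h (columns); a filled tile is an increased region, coloured by histone family, and a white tile is no call. No row is filled in both lines, and 3 of the 19 genes lie on chromosome 1.

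The members called differed between the lines. No gene was increased in both lines at 3 h (0 of 2 in OCI-LY3 and 0 of 11 in VAL) or at 8 h (0 of 5 and 0 of 9), nor with the times put together (0 of 6 and 0 of 13). The same held for the 13 regions, of which 9 were called in VAL, 4 in OCI-LY3 and 0 in both. Of all increased regions within 1000 bp of a protein-coding TSS, 1802 were called in OCI-LY3 and 4606 in VAL at either time, and 1360 in both (75.5% and 29.5%). For all protein-coding genes, whose 0 h libraries were likewise separate for each line, 948 genes were increased in both lines at 3 h, which was 54.0% of the OCI-LY3 genes and 32.9% of the VAL genes. At 8 h 2367 genes were shared, or 73.5% and 35.4%, and over either time 2597, or 72.1% and 38.1%. The absence of shared members held at 8 h but not at 3 h when regions up to 5000 bp from a TSS were counted: H2AC14, H2BC14 and H3C10 were then called in both lines at 3 h, beside 1058 genes of the whole annotation (56.2% and 34.5%). No region was shared, since the OCI-LY3 region at H3C10 and the VAL region at H2AC14 and H2BC14 are neighbours that differ. Across the whole annotation 804 genes (3.99%) were increased in all 4 comparisons, against 0 members.

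No member met the conditions that were to bring a fuller account (called in both lines at 8 h, in all 4 comparisons, decreased, or changed in opposite directions), so the members increased at both times of a line are described instead, a choice made after the calls were seen. In VAL these were H3C2, H2AC4, H2BC3, H3C3, H3C4, H2AC7 and H4C12, on 4 regions with the same coordinates at 3 and 8 h. In OCI-LY3 it was H3C10 alone. The 150 bases before the canonical TSS of the 7 whose TSS was covered are given to show the promoters at which accessibility changed. Each was read from GRCh37 along the strand of its gene, with capitals marking a match on either strand to any of 6 elements known from histone promoters. These are the TATA box (TATAAA), the CCAAT box (CCAAT), the octamer (ATTTGCAT), the H1 box (AAACACA), the core of the H4 element (GGTCCG) and an E2F motif (TTTNGCGC), none of which is contained in another.
H3C2, chr6:26032328-26032477, minus strand: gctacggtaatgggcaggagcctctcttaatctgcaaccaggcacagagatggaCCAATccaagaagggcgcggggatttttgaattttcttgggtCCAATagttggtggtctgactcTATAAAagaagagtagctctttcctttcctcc
H2AC4, chr6:26033847-26033996, minus strand: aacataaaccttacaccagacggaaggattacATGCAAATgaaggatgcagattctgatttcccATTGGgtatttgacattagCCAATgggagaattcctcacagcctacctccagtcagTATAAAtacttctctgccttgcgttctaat
H2BC3, chr6:26043942-26044091, minus strand: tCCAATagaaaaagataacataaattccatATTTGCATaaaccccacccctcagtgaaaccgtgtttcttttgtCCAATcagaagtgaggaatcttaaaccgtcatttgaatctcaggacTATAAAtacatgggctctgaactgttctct
H3C3, chr6:26045462-26045611, plus strand: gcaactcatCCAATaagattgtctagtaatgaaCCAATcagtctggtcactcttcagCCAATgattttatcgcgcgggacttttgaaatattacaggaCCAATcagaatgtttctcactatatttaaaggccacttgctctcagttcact
H2AC7, chr6:26199522-26199671, minus strand: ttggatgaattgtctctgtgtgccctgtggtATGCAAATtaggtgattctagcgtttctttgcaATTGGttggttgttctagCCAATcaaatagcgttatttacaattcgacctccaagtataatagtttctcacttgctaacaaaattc
H4C12, chr6:27799339-27799488, minus strand: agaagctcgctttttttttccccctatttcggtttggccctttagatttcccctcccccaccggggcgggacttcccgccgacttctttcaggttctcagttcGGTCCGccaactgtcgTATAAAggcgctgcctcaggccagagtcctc
H3C10, chr6:27777679-27777828, plus strand: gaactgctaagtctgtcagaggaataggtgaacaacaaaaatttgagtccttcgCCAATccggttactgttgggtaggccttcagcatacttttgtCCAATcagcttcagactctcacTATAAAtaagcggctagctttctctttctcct

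H3C2 (H3) and H2AC4 (H2A) shared the VAL region chr6:26031686-26034390, which held the single exon of both genes in full. Their promoters have a TATA box that begins 32 and 30 bases before the TSS. H2AC4 has an octamer 118 bases before it, and both genes have 2 CCAAT boxes in the bases shown.

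H2BC3 (H2B) and H3C3 (H3) shared chr6:26043533-26046315, increased in VAL at both times, the TSS of each being covered. All of H3C3 and 84.0% of H2BC3 lay in it. H2BC3 has a TATA box at 30 bases and an octamer at 120 bases before its TSS, while H3C3 has 4 CCAAT boxes and no TATAAA in this stretch.

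The region chr6:26198452-26200322, again increased in VAL at both times, covered H2AC7 (H2A) from 801 bp before to 1069 bp after its TSS. It counted for H3C4 (H3) only through the distance limit, ending 938 bp upstream of that gene's TSS and touching none of the gene. It also met the rule for ENSG00000282988, the only gene outside the list to share a region with a member, which is annotated from 26195823 to 26199521 across H2AC7.

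H4C12 (H4) was covered whole by chr6:27798039-27799829 in VAL at both times. Its promoter has the H4 element core 47 bases and a TATA box 31 bases before the TSS. H3C10 (H3) was the member increased at both times in OCI-LY3, with chr6:27777682-27778734 reaching from 147 bp upstream to 905 bp downstream of its TSS. This was the region that reached least far upstream of a TSS it covered.

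Other regions were called at 1 time. In VAL at 3 h these were chr6:26204460-26206660 over H4C5, chr6:27781651-27783849 over H2AC14 and H2BC14, and chr6:27857773-27858812 over the TSS of H3C12. In VAL at 8 h chr6:26171608-26173701 lay in the long annotated span of H2BC6, 10288 bp upstream of its canonical TSS, and chr1:149814491-149815902 ended 13 bp before the TSS of HIST2H2AA3. These are the 2 regions that covered no canonical TSS of a member, though the first covered another annotated TSS of H2BC6. In OCI-LY3 at 3 h chr6:26215674-26218072 covered H2AC8, and at 8 h chr6:26249838-26252727 covered H3C7 and H2BC9 and chr1:149783167-149785588 covered the TSS of H2BC18 and all of H3C13.

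**Figure D3:**
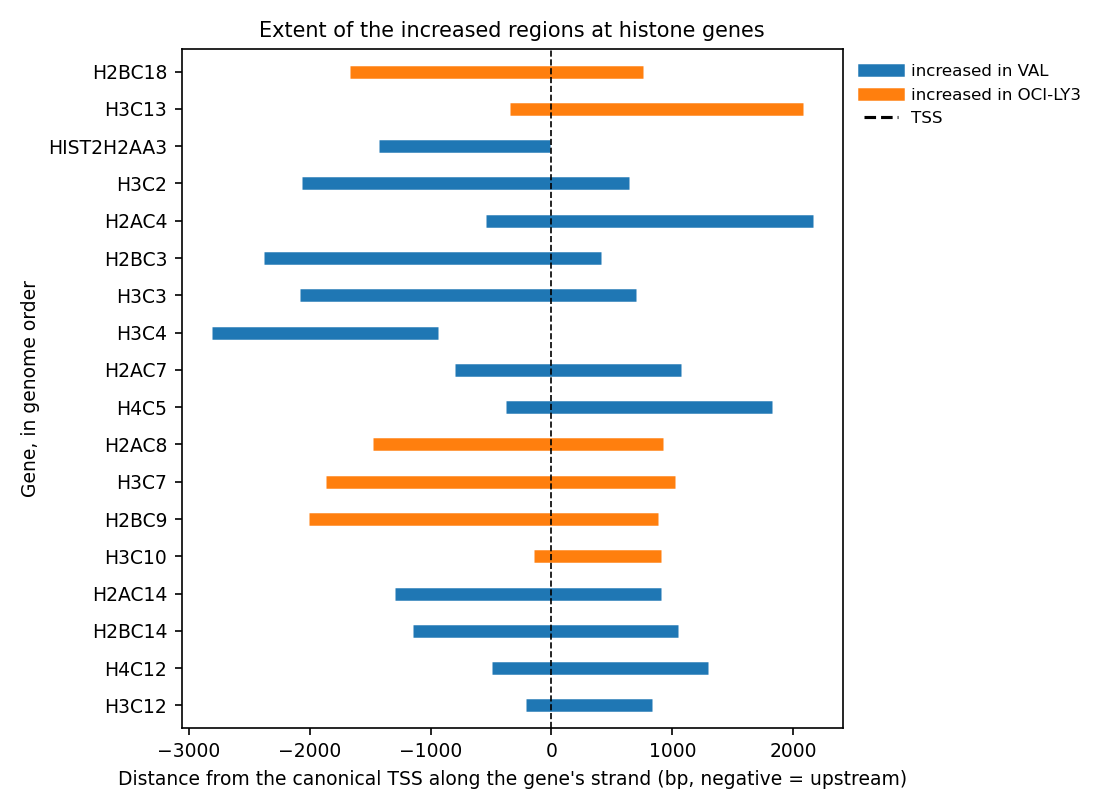
Extent of the increased region (bp from the canonical TSS along the gene's strand, negative upstream) for 18 of the 19 histone genes with a call, blue for VAL and orange for OCI-LY3; neighbours on 1 region each have a bar, and H2BC6, whose region lay 10288 bp upstream, is not drawn. The bars of H3C4 and HIST2H2AA3 end upstream of the dashed TSS line, by 938 and 13 bp, and the others cross it.

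The regions at histone genes were wide. Their widths ran from 1040 to 2890 bp with a median of 2199 bp, and 8 of 13 were wider than 2000 bp, whereas the 5048 increased regions near any protein-coding TSS had a median of 1574 bp and 15.6% of them were wider than 2000 bp. In 5 of the 13 regions the canonical TSS of 2 members was covered, in 6 that of 1 member and in 2 none, so genes on the same region are not independent calls. Counted as regions, there were 2 at 3 h and 3 at 8 h in OCI-LY3 of 1852 and 4367 increased regions, and 7 and 6 in VAL of 3545 and 11121.

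Their GC content ran from 44.9% to 51.7% with a median of 49.1%, compared with a median of 62.4% for increased regions near any protein-coding TSS. The 1000 bp on each side of the canonical TSS had a median GC content of 48.8% in the 67 genes and 55.9% in all protein-coding genes. It was 46.0% in the 19 called and 49.5% in the 48 other members. Genes of the whole annotation with an increased region over a TSS had medians of 58.0% and 58.5% in OCI-LY3 and 60.1% and 60.0% in VAL, at 3 and 8 h. The part of base composition in the members' counts was not tested.

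Among the members, the octamer, the H1 box and the H4 element core were matched mainly in certain histone families. The TATA box was matched in genes of every family. From 250 bases before to 50 after the canonical TSS, on either strand and with 0 mismatches, a TATA box was matched in 45 of 67 members (67.2%), against 9.80% of all protein-coding genes. A CCAAT box was found in 55 members (82.1%, all genes 35.9%), including 13 of 13 H3 and 6 of 6 H1 genes but 4 of 14 H4 genes. The octamer, bound by the factor OCT1 in H2B promoters, was found in 12 of 17 H2A and 13 of 17 H2B genes, in 0 genes of the H1, H3 and H4 families and in 1.58% of all genes. The H1 box was in 6 of 6 H1 genes and also in 1 H2A and 2 H3 genes, against 4.22% of all genes. The H4 element core, recognised by the H4 activator HINFP, was in 12 of 14 H4 genes and 14.6% of all genes. It was also in 1 gene each of the H2A, H2B and H3 families. The E2F motif was in 13 members (19.4%), 12 of them H2A or H2B genes, and in 2.26% of all genes. Many H2A and H2B genes lie in pairs transcribed away from each other, whose searched promoters overlap. The same site can then count for both genes of a pair, so the octamer and E2F counts are of genes and not of separate sites.

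Shares of called and uncalled members with a match lay close together for 3 of these elements. A TATA box was matched in 13 of 19 called and 32 of 48 uncalled members (68.4% and 66.7%), and a CCAAT box in 16 and 39 (84.2% and 81.2%). For the E2F motif the counts were 4 and 9 (21.1% and 18.8%), and for the octamer 9 and 16 (47.4% and 33.3%). In these counts too, the same site can stand for both genes of a pair. The H4 element core was in 3 called and 12 uncalled genes, and the H1 box in 0 and 9, the family counts above entering both. A match is a description of the letters and not of a factor bound there.

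**Figure D4:**
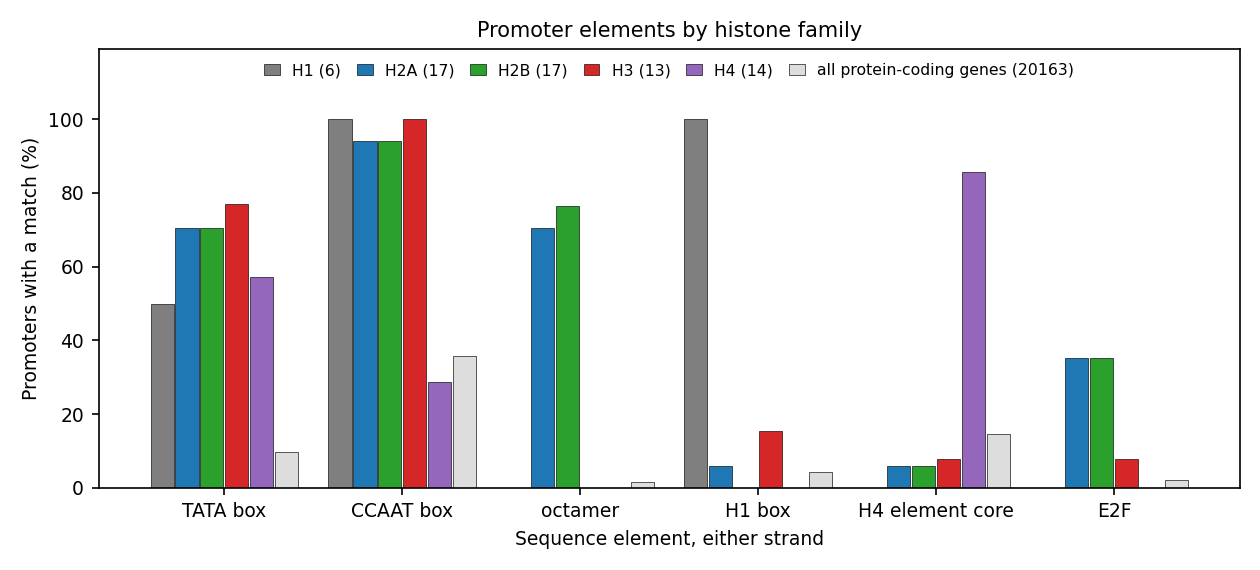
Share of promoters (%, vertical axis) with a match to each of 6 sequence elements on either strand, for the 5 histone families (coloured bars, number of genes in the key) and all 20163 protein-coding genes (light grey). The octamer bars are present for H2A and H2B alone among the families, the H1 box reaches 6 of 6 H1 genes and the H4 element core 12 of 14 H4 genes.

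Many H2A and H2B genes stand head to head on a shared promoter. There were 11 pairs of members transcribed away from each other with TSS less than 1000 bp apart, of which 2 were called, H3C7 with H2BC9 (979 bp apart) in OCI-LY3 at 8 h and H2AC14 with H2BC14 (245 bp apart) in VAL at 3 h. This was 18.2% of the pairs, where 60.9% of 978 such pairs in the whole annotation had an increased region for either gene in at least 1 comparison. Regions in the gene body count here, and members are far shorter than genes at large (medians of 508 and 27219 bp). The part of gene length in this gap was not tested, and no count of regions covering a TSS is given for pairs. The bases between the TSS are shown for H2AC14 with H2BC14 and for H2BC13 with H2AC13, the nearest such pair on chromosome 6, which was not called. Both are read along the plus strand of GRCh37, with element matches on either strand in capitals.
H2AC14 to H2BC14, chr6:27782556-27782799, plus strand: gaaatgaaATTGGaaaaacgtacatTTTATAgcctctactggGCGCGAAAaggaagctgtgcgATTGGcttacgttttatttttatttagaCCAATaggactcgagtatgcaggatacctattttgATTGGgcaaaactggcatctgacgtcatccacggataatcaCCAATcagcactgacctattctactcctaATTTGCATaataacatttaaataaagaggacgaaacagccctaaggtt
H2BC13 to H2AC13, chr6:27775708-27775950, plus strand: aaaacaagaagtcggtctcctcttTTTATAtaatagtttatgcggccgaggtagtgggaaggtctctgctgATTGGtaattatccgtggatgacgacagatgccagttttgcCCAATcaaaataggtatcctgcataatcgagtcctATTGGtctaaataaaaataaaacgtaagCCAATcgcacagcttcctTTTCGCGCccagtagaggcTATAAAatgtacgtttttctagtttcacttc
The called pair has CCAAT boxes, a TATA box, an E2F motif and an octamer between its TSS. The uncalled pair has CCAAT boxes, a TATA box facing each gene and an E2F motif, and no octamer of these letters. The octamer was in the promoter of at least 1 gene in both called pairs and in 6 of the 9 uncalled pairs. It was in the promoters of both genes in 1 of the 2 called and 6 of the 9 uncalled pairs. Except in H3C7 with H2BC9, the promoters searched in a pair largely overlap, so 1 octamer can count for both genes. These counts for both genes therefore show no difference between called and uncalled pairs.

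The calls on chromosome 6 are given by groups of neighbouring genes. Members less than 200 kb apart, a limit set after the data were seen, formed groups of 29 genes (26017260 to 26285866), 16 genes (27775257 to 27861669), 5 genes (27093676 to 27115341) and 2 genes (25723625 to 25727573). In the group of 29 genes 1 and 2 were increased in OCI-LY3 at 3 and 8 h and 7 and 7 in VAL. In the group of 16 the counts were 1 and 1 in OCI-LY3 and 4 and 1 in VAL. On chromosome 6 the net fall in VAL calls from 3 h to 8 h lay in the group of 16. The 7 and 7 in the group of 29 were not all the same genes, as H4C5 was called at 3 h only and H2BC6 at 8 h only. The groups of 5 and 2 genes had 0 calls, but at the shares of 9.45% to 26.7% found over all genes of the chromosome, few or none would be counted among 7 genes, and no order of the groups can be read from this. Every increased region inside these 4 groups lay at a member, with 4 at each time in VAL in the group of 29, and there was no decreased region inside them.

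Genes other than histone genes also lie in this stretch. Of the 20 other protein-coding genes between the first and last member on chromosome 6, 0 were increased in OCI-LY3 at either time. In VAL 1 was increased and 1 decreased at 3 h, and 3 were increased and 2 decreased at 8 h, and of those increased ENSG00000282988 was called through the region at H2AC7. Over the 1048 protein-coding genes of chromosome 6 the increased shares were 9.45% and 16.7% in OCI-LY3 and 13.1% and 26.7% in VAL, at 3 and 8 h.

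Near-identical copies limit what short reads can show here, since the authors removed reads that align to more than 1 place. The share of 31-base words within 1000 bp of the TSS that occur once in the genome had a median of 91.4% over the 67 genes. It was under 50% in 9 genes and 0% in H3C14, H3C15, H4C14 and H4C15, where no stretch of that length can be placed at 1 site. In the 11 genes on chromosome 1 from 149754245 to 149859515 the median was 17.0%. The 3 calls there lie in such sequence, with 22.7% of words unique at H2BC18, 17.0% at H3C13 and 20.3% at HIST2H2AA3, and without the genes under 50% the OCI-LY3 count at 8 h was 3 of 58. The median was 91.6% in called and 89.6% in uncalled members, and the 6 H1 genes, none called, had 99.4% or more.

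**Figure D5:**
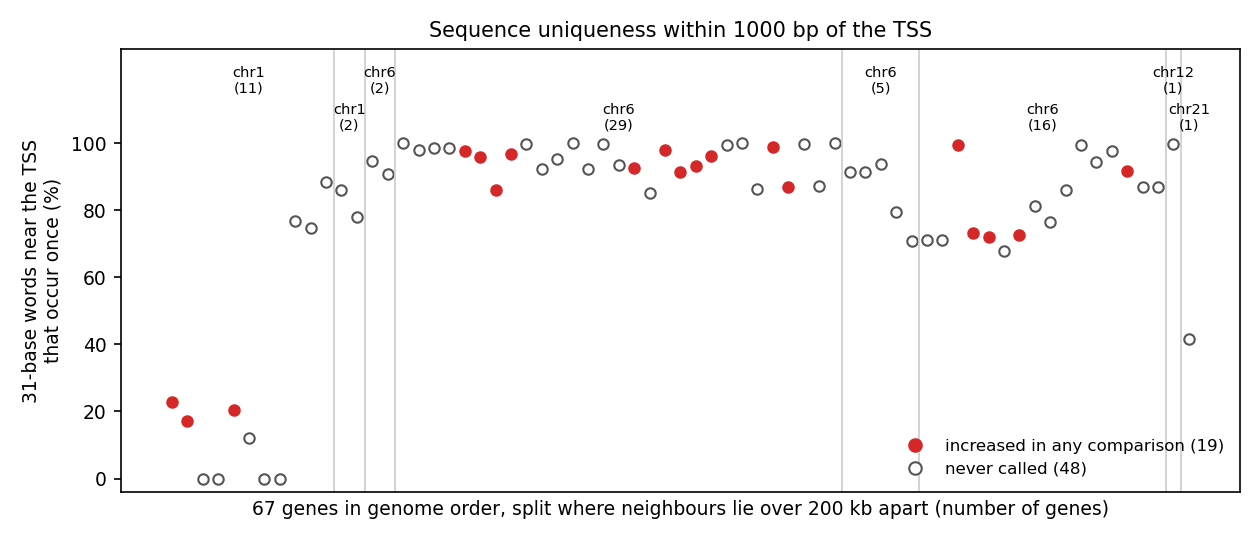
Share of 31-base words within 1000 bp of the TSS that occur once in the genome (%, vertical axis) for the 67 histone genes in genome order, split where neighbours lie over 200 kb apart; red points were increased in any comparison and open points never called. The 11 genes at the left, on chromosome 1, have a median of 17.0% and hold 3 red points, and the group of 29 genes on chromosome 6 has a median of 96.9%.

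Histone genes listed as replication-independent were described beside these. Of 25 listed replication-independent histone genes 24 were in the annotation, and 2 were increased in each of OCI-LY3 at 3 h, OCI-LY3 at 8 h and VAL at 3 h, and 4 in VAL at 8 h, with 0 decreased in any. These counts stand beside the all-gene shares of 8.71%, 16.0%, 14.3% and 33.2%, in that order. H2AX, the H2A variant phosphorylated at DNA breaks, and H3-3B, which encodes the replacement histone H3.3, were increased in all 4 comparisons with the TSS covered. H2AX and H3-7 were also among the 11 genes outside the 67 members that carried the stem-loop, so that mark does not set them apart. H2AX transcripts are known to end in either way. Of the 24 genes, 20 were called in no comparison, as were 48 of the 67 replication-dependent genes.

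Genes for histone gene transcription, histone mRNA processing and histone chaperones were taken from a list of 39. Of these, 6 and 9 were increased in OCI-LY3 and 12 and 20 in VAL at 3 and 8 h. The shares of all genes increased were those given above, and these 39 genes were not matched to the members in length. The counts with a decreased region were 1 and 1 in OCI-LY3 and 2 and 2 in VAL, where 4.40% and 7.07% of all genes had one in OCI-LY3 and 4% and 12.5% in VAL. E2F1, a cell cycle transcription factor, and SRRT, which links the mRNA cap to 3' end processing, were increased in all 4 comparisons. Also increased in both lines in at least 1 comparison each were the histone mRNA processing genes LSM10 and ZNF473, the cleavage scaffold SYMPK, MBLAC1, the kinase CDK2, the transcription factor YY1 and the chaperone HIRA. For LSM10 and YY1 the regions of the lines differed, and in OCI-LY3 they lay off the canonical TSS. POU2AF1, the B-cell coactivator of octamer-binding factors, had a decreased region in all 4 comparisons, with increased regions as well in OCI-LY3 at 8 h. None of these regions covered its canonical TSS. The decreased regions at 8 h differed from the one at 3 h and between the lines.

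A few regulators called in a single line are named for their known roles, after their calls were seen. SLBP had an increased region over its TSS in VAL at 3 and 8 h and a decreased region elsewhere in the gene at 3 h. CDK9, the target of the inhibitor, had an increased region over its TSS in VAL at both times. Neither gene was called in OCI-LY3. NPAT had no region called in OCI-LY3 and a decreased one away from its TSS in VAL at 8 h. CASP8AP2, which acts with LSM11 in histone mRNA processing, had an increased region over its TSS in OCI-LY3 at 3 h and no other call. These calls concern accessibility, and mRNA levels were not analysed here.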

How the data were processed

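ATAC-seq libraries of OCI-LY3 and VAL were analysed as the authors' region lists. Per the labels, hg19, Bowtie2, MACS2, bedtools and DESeq2 were used, with no versions given in the sources used here. The authors called peaks per sample, removed reads aligning to several places, merged the peaks, counted reads in them and tested each treated time of a line against its 0 h libraries by DESeq2 with a fold-change limit of 1.5 and an adjusted p limit for which the sources give 2 different values, so how strict a call is remains uncertain. They deposited coordinates in bp, with 0 columns of per-sample values, so depth is unknown and genes without a call count as not called.

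Regions were assigned to GENCODE v44lift37 genes (transcripts tagged basic, GRCh37) with Python 3.11.15, numpy 2.4.6 and pysam 0.24.0 (genome indexed by samtools 1.23.1), and plotted with matplotlib 3.10.9. No test was run, as genes are not replicates. The gene rule recovered 200 of 200 planted genes on simulated data, and the word count, stem-loop and motif searches returned 0 wrong results. The motif check planted only the TATA box, in a background of C and G alone, so the other elements went unchecked.

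The members and gene lists were chosen with earlier results of these data known. The 2 members under older HIST names were added to the planned name rule. Each called member is named. Other genes are named if on a list and called in both lines, or if sharing a region with a member, apart from those said to be chosen later. Alternatives changed the TSS distance, transcripts, shared regions, gene set and unit of counting.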

Additional observations from a re-analysis of the deposited data

How the results depend on the processing

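The lists used here hold no value per library, so no replicate could be left out, and depth, replicate error and library protocol stay unexamined. No paired analysis was possible because the lists carry no replicate numbers and no result came from a test. Of 90 alternative values, 84 stayed within 1.5 times the reported count or share, 6 moved and 0 reversed. The 84 include counts of decreased members, and of members shared between lines, that were 0 and stayed 0. Only the members' value was compared, not its gap to all genes. In OCI-LY3 at 8 h, 5 members (7.46%) stood beside 16.0% of all genes by the main rule and 8.97% for regions covering a TSS. With a TSS distance of 5000 bp, OCI-LY3 had 6 increased members at 3 h and 10 at 8 h, and 3 members were increased in both lines at 3 h (0 at 8 h). For OCI-LY3 at 8 h, 3 were increased both without members under 50% unique and without those on chromosome 1, which drop the calls of H2BC18 and H3C13. The share of increased VAL regions at 8 h that lie at members was 0.0540% by number and 0.0872% by base pairs. The count of decreased members in each list stayed 0 under the alternatives run, including 5000 bp. Counting the overlap between lines by equal region coordinates gave 0, as did the settings other than 5000 bp. All but equal coordinates were applied to the overlap after the data were seen.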
